A study of Mus musculus with 31 samples.

Results

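Emx1, Emx2, Dmrt3, Dmrta1, Dmrta2, Lhx2, Pax6, Nr2f1 and Nr2f2 encode transcription factors that pattern the progenitors of the developing cerebral cortex. The list was drawn up by name, as cortical patterning genes, with earlier results of these data known, and all 9 were found in both tables of the series, among 34865 gene identifiers in the bulk table and 55487 in the Smart-seq2 table. Bulk RNA-seq covered 3 libraries of dorsal and 3 of ventral diencephalon from wild-type mouse embryos at E10.5 (embryonic day). Smart-seq2, a full-length method for very small RNA inputs, covered 13 libraries labelled Axin2-null (Axin2-/-) and 12 labelled Axin2 wild type (Axin2+/+) from E11.5 medial cortex. Cells of both genotypes came from Emx1-CreERT2::MADM-11::Axin2LacZ/+ breedings, and both are labelled as carrying 1 Emx1-cre allele (+/-). MADM (mosaic analysis with double markers) makes differently coloured sister cells by recombination between a pair of chromosomes, here chromosome 11, which carries Axin2. Recombination is limited to cells that have used the Emx1 promoter, so the Smart-seq2 libraries sample cells with past Emx1 activity and Emx1 itself is not independent of how they were obtained.

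As background, the cortex forms from a sheet of progenitors that read signals from its edges, among them Wnt and BMP proteins from the cortical hem at the medial edge and FGF proteins from the front. The transcription factors described here are expressed in gradients or bands across that sheet and set its borders and areas. Axin2 is a target and a negative regulator of canonical Wnt signalling. Several of the factors are also used outside the cortex, such as Pax6 in the diencephalon, eye and pancreatic islets.

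Promoter sequences are shown for 4 of the genes, to set 3 that were higher in dorsal diencephalon (Dmrta2, Lhx2 and Pax6) beside 1 that was not (Nr2f2). Each is the 250 bases before a RefSeq transcription start on GRCm38.p6, printed 5′ to 3′ on the strand of the gene. The stretches are chr4:109977775-109978024 (plus strand) for Dmrta2, chr2:38339031-38339280 (plus strand) for Lhx2, chr2:105668646-105668895 (plus strand) for Pax6 and chr7:70366747-70366996 (minus strand) for Nr2f2. Capitals mark matches on either strand to CCAAT (the CCAAT box), GGGCGG (the SP1-type GC box) or CTTTGAT (a TCF/LEF core, the sequence bound by the transcription factors of canonical Wnt signalling).
Dmrta2: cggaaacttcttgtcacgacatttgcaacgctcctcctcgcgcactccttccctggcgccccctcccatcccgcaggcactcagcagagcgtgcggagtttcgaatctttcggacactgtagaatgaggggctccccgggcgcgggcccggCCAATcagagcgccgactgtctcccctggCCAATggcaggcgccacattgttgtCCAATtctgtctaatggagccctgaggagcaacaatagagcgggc
Lhx2: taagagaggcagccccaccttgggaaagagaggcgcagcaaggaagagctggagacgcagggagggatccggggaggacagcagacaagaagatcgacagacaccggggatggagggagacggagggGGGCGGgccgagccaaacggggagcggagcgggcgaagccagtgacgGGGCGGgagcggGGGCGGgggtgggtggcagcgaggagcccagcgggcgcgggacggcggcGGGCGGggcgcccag
Pax6: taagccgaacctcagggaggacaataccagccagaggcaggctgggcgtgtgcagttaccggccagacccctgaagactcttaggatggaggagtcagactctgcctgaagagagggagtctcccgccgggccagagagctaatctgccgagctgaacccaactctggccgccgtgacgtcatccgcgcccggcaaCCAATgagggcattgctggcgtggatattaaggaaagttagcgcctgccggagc
Nr2f2: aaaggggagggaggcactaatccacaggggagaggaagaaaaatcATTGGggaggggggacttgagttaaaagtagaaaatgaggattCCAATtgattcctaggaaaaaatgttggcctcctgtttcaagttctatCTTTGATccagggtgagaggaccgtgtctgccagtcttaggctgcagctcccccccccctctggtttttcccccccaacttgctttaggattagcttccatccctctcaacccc

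The Dmrta2 stretch held 3 CCAAT boxes, the Lhx2 stretch 4 GC boxes and the Pax6 stretch 1 CCAAT box. The Nr2f2 stretch held 2 CCAAT boxes, 1 of them on the other strand, and the 1 TCF/LEF core found among the 12 RefSeq windows of the 9 genes. These windows run from 250 bases before to 50 bases after a start. Over the 32851 windows of that length in RefSeq, 37.4% held CCAAT, 35.7% held GGGCGG and 3.73% held CTTTGAT. The CCAAT and GC boxes were added to the search after these sequences had been seen. AGGTCA (a nuclear receptor half-site) and TATAAA (the TATA box) were also searched and matched none of the 12 windows, against 16.3% and 13.6% of all windows, and TAATTA (a homeodomain core) matched 1 window, that of Emx2, against 5.29%. The G and C content of the 12 windows ran from 43.0% to 74.7%, with a median over all windows of 52.7%. A match describes these letters only, and no binding was measured.

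The bulk libraries held between 17604166 and 20838002 counts. The labelled regions were checked against marker lists: all 10 thalamic and pretectal markers tested were higher in dorsal libraries, and 9 of 10 hypothalamic markers were higher in ventral ones. The ventral libraries carried gut and pancreas transcripts that an embryonic brain should lack. The summed level of 8 small intestine markers was 6.95 to 8.67 CPM (counts scaled to the library total) in dorsal tissue and 1784 to 6521 CPM in ventral tissue, and that of 8 exocrine pancreas markers was 2.68 to 3.17 CPM in dorsal tissue and 574 to 2478 CPM in ventral tissue. In the Smart-seq2 table the columns of 7 null and 7 wild-type libraries come first and those of 6 null and 5 wild-type libraries follow. Axin2 ran from 0 to 22.4 TPM (a transcript's length-corrected share of its library) with a median of 3.28 TPM in null libraries and from 4.32 to 35.9 TPM with a median of 13.2 TPM in wild-type libraries, and the median of wild type was passed by 3 null libraries. Which bases of Axin2 the null allele lacks is not given in the sources used here, so remaining reads do not show which cells are null.

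Dorsal diencephalon libraries had more RNA of 7 of the 9 genes than ventral libraries. No member was higher in ventral by edgeR or DESeq2, and the count at an unadjusted p under 0.05 was also 0. All 9 passed the minimum of 1 CPM for testing. The 7 higher in dorsal were Emx1, Emx2, Dmrt3, Dmrta1, Dmrta2, Lhx2 and Pax6, by 6.31-fold or more, and for each of them all 3 dorsal libraries lay above all 3 ventral libraries. The pair of COUP-TF nuclear receptor genes, Nr2f1 and Nr2f2, did not pass the test. Of the 14701 genes tested with edgeR's quasi-likelihood test, 7.14% had an adjusted p under 0.05 in favour of dorsal and 9.54% in favour of ventral tissue, and 19.0% had all 3 dorsal libraries above all 3 ventral ones. The median log2 fold change (dorsal over ventral) was 4.23 over the 9 genes and 0.0062 over all genes tested. In bulk tissue, fewer cells that use a gene and less RNA per cell cannot be told apart. Separate embryos are not stated for the 3 libraries of either region, so the p-values reflect only how these libraries vary, which may be technical.

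**Figure D1:**
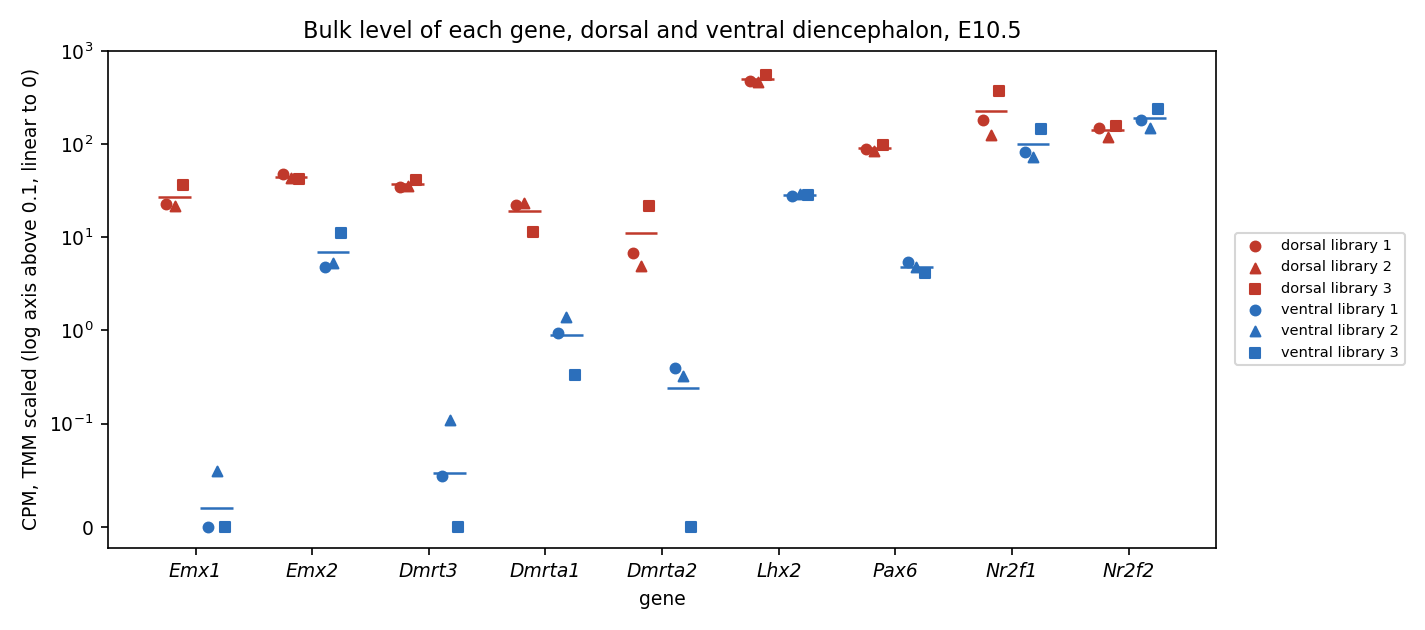
Level of each gene in each bulk library in CPM after TMM scaling, on an axis that is logarithmic above 0.1 and linear from 0.1 to 0. Circles, triangles and squares are libraries 1, 2 and 3, dorsal left of ventral, and short lines are means. For 7 genes the dorsal points lie above all ventral points, and for Nr2f1 and Nr2f2 the regions overlap.

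The Emx genes encode homeodomain factors of the dorsal telencephalon. Emx1 (ENSMUSG00000033726, chromosome 6, 85187438 to 85204462, plus strand) marks cortical progenitors and their glutamatergic descendants. It was at 22.8, 21.6 and 36.1 CPM in dorsal libraries, against 0, 0.0541 and 0 CPM in ventral libraries. The ventral libraries thus held almost none of it: 1 count in all, against 1572 counts in dorsal libraries. The ratio of the summed counts, scaled for library size, was 1493 with an exact 95% counting interval of 268 to 59008. Emx1 had the largest log2 fold change of all genes tested, 10.12 ± 0.68 (SE, adjusted p = 0.000102, edgeR quasi-likelihood test), a value that depends on the small count the tool adds to a level near 0. The 1 ventral count lies in ventral library 2, and without that library the log2 fold change was 12.04. With limma on log2(CPM + 1), which compresses low levels by construction, it was 4.74.

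Emx2 (ENSMUSG00000043969, chromosome 19, 59458372 to 59465357, plus strand), whose gradient falls from caudomedial to rostrolateral cortex, was less exclusive to dorsal tissue. It was at 47.6, 42.7 and 42.4 CPM in dorsal libraries, against 4.78, 5.25 and 11.01 CPM in ventral libraries. It was 6.31-fold higher in dorsal (95% interval 3.58 to 11.1), the smallest fold of the 7 genes that passed (log2 fold change 2.66 ± 0.35, adjusted p = 0.00206, edgeR). Ventral library 3 had the most Emx2 of the ventral libraries. An exon of Emx2 overlaps the antisense gene Emx2os over 264 bases, and since the strand setting of the counting is not given in the sources used here, reads of the pair could not be separated.

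The Dmrt genes encode DM-domain factors, and in mouse Dmrt3, Dmrta1 and Dmrta2 are expressed in the dorsal telencephalon. Dmrt3 (ENSMUSG00000042372, chromosome 19, 25610301 to 25623921, plus strand) had nearly the same level in each dorsal library, 34.7, 35.7 and 41.5 CPM, against 0.0493, 0.108 and 0 CPM in ventral libraries. That was 2214 counts in dorsal and 3 counts in ventral libraries, a scaled ratio of 701 with an exact 95% counting interval of 240 to 3401. Dmrt3 ranked 5 of all genes tested by log2 fold change (9.30 ± 0.52, adjusted p = 6.6e-05, edgeR), and the log2 fold change was 10.16 without ventral library 2 and 5.18 with limma on log2(CPM + 1). Dmrt3 and Emx1 were thus the members closest to absent from ventral libraries.

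Dmrta1 (ENSMUSG00000043753, chromosome 4, 89679436 to 89694772, plus strand) was at 22.2, 23.3 and 11.4 CPM in dorsal libraries, against 0.937, 1.41 and 0.334 CPM in ventral libraries. Library 3 was the lowest of its region in both regions. The gene was 21.1-fold higher in dorsal (95% interval 8.24 to 53.9, log2 fold change 4.40 ± 0.59, adjusted p = 0.00208, edgeR). Dmrta2 (ENSMUSG00000047143, chromosome 4, 109978053 to 109983687, plus strand), which is required in mouse for the cortical hem and the medial cortex, was the least even across dorsal libraries. It was at 6.81, 4.85 and 21.6 CPM in dorsal libraries, against 0.395, 0.324 and 0 CPM in ventral libraries. Its SD over dorsal libraries was 82.5% of the mean, against 6.63% for Emx2. It was 44.5-fold higher in dorsal with a wide 95% interval of 8.35 to 237 (log2 fold change 5.47 ± 1.04, adjusted p = 0.00999, edgeR), and 3.04 on the log2(CPM + 1) scale of limma. Without dorsal library 3, the highest, the log2 fold change was 4.56 (adjusted p = 0.0361, edgeR). With same-numbered libraries of the 2 regions taken as blocks, Dmrta2 did not pass (log2 fold change 5.20, adjusted p = 0.0606, edgeR).

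Lhx2 and Pax6 encode a LIM-homeodomain and a paired-homeodomain factor. Lhx2 (ENSMUSG00000000247, chromosome 2, 38339281 to 38369733, plus strand) acts in mouse as a selector of cortical identity that keeps the hem at the edge. It was at 474, 463 and 547 CPM in dorsal libraries, against 27.4, 29.1 and 28.04 CPM in ventral libraries. Both regions were tight, and the 17.6-fold difference had the narrowest interval of the 9 genes (95% interval 13.5 to 22.9, log2 fold change 4.13 ± 0.17, adjusted p = 3.08e-05, edgeR). Pax6 (ENSMUSG00000027168, chromosome 2, 105668900 to 105697364, plus strand), high in rostrolateral cortex and also used in dorsal diencephalon and in islet cells, was at 87.2, 84.5 and 98.2 CPM in dorsal libraries, against 5.47, 4.81 and 4.12 CPM in ventral libraries. It was 18.7-fold higher in dorsal (95% interval 13.3 to 26.3, log2 fold change 4.23 ± 0.21, adjusted p = 5.25e-05, edgeR).

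Markers of pancreatic islets, another site of Pax6, differed among themselves. The summed level of 7 islet markers was 101 to 141 CPM in dorsal tissue and 232 to 272 CPM in ventral tissue, and Sst and Chga made up most of it. Of the 4 tested, Ins2 and Sst were higher in ventral, with Ins2 at 0.0477 ± 0.048 CPM in dorsal tissue and 8.18 ± 6.54 CPM in ventral tissue (SD, n = 3 each), and Sst at 10.3 ± 5.73 CPM in dorsal tissue and 149 ± 33.0 CPM in ventral tissue. Chga was at 103.3 ± 15.9 CPM in dorsal tissue and 90.0 ± 3.75 CPM in ventral tissue and Gcg at 1.44 ± 1.06 CPM in dorsal tissue and 1.03 ± 0.978 CPM in ventral tissue, and neither passed. Sst and Chga are also used by neurons. The part of these transcripts in the ventral Pax6 level was not tested.

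Nr2f1 (COUP-TFI, ENSMUSG00000069171, chromosome 13, 78188973 to 78199757, minus strand) is graded from high caudolateral to low rostromedial cortex. It was at 179, 124 and 373 CPM in dorsal libraries, against 81.3, 72.3 and 146 CPM in ventral libraries, so that dorsal library 2 lay below ventral library 3. The log2 fold change was 1.17 ± 0.44 (95% interval 0.16 to 2.18, adjusted p = 0.113, edgeR). Library 3 was the highest of its region in both regions, and without dorsal library 3 the value was 0.60 (adjusted p = 0.262). With DESeq2 (1.16, adjusted p = 0.0313), and with edgeR when genes of low counts were kept (1.16, adjusted p = 0.0318), Nr2f1 passed. It also passed with edgeR when same-numbered libraries were taken as blocks (1.09, adjusted p = 0.0209).

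Nr2f2 (COUP-TFII, ENSMUSG00000030551, chromosome 7, 70351944 to 70366735, minus strand), found in caudal cortex, ventral forebrain and vessels, was the 1 gene of the 9 with a mean lower in dorsal. It was at 148, 117 and 154 CPM in dorsal libraries, against 179, 150 and 237 CPM in ventral libraries. Dorsal library 3 lay above ventral library 2, so the regions overlapped. The summed level of 6 endothelial markers was 2.40 to 8.50 CPM in dorsal tissue and 3.28 to 6.71 CPM in ventral tissue. The log2 fold change was -0.43 ± 0.21 with a 95% interval of -0.93 to 0.06 (adjusted p = 0.217, edgeR), an interval that leaves room for a level of 0.526-fold to 1.04-fold that of ventral. An exon of Nr2f1 overlaps A830082K12Rik and an exon of Nr2f2 overlaps B130024G19Rik, both on the plus strand, so these counts may include reads of the overlapping genes.

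**Figure D2:**
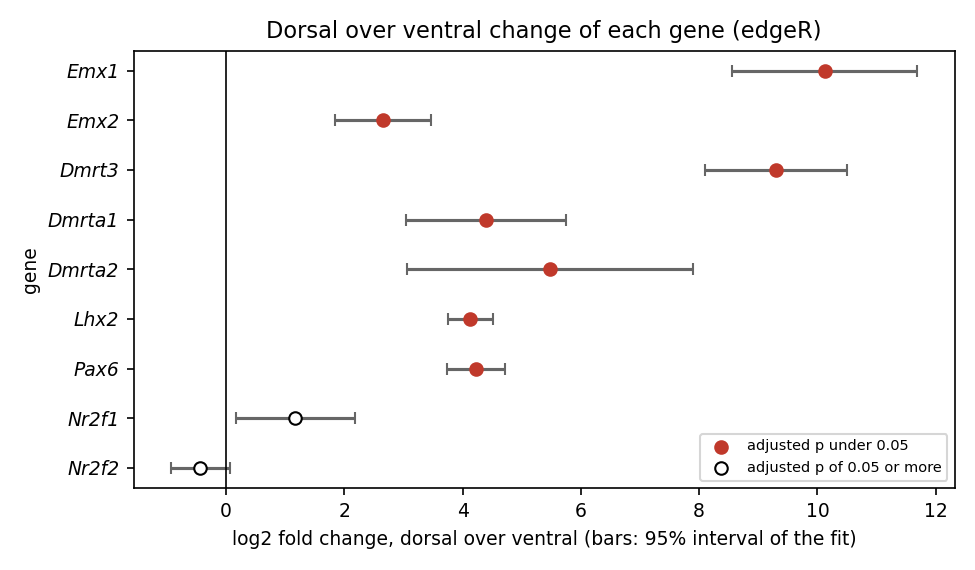
Log2 fold change of each gene, dorsal over ventral, with the 95% interval of the edgeR fit as bars. Filled points had an adjusted p under 0.05. The values run from -0.43 for Nr2f2 to 10.12 for Emx1, and the interval is widest for Dmrta2 and narrowest for Lhx2.

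Divided by exon length, the order of the genes differed between the regions. The length was that of all annotated exons of a gene together, such as 11694 bases for Pax6 and 2184 bases for Emx1. Levels of different genes are therefore only roughly comparable. In dorsal libraries Lhx2 was the highest at 113 ± 10.496 CPM per kb (SD, n = 3), followed by Nr2f1 at 44.2 ± 25.7 CPM per kb. Nr2f2 (16.2 CPM per kb), Dmrt3 (15.3 CPM per kb), Emx2 (14.7 CPM per kb) and Emx1 (12.3 CPM per kb) came next, and neighbours among these 4 overlapped in their library ranges. Pax6 (7.69 CPM per kb) was below Emx1 in every dorsal library, and Dmrta1 (4.52 CPM per kb) and Dmrta2 (3.79 CPM per kb) closed the order without separating from each other. In ventral libraries Nr2f2 at 21.9 CPM per kb and Nr2f1 at 19.6 CPM per kb led and overlapped, and Lhx2 (6.41 CPM per kb), Emx2 (2.34 CPM per kb) and Pax6 (0.411 CPM per kb) followed in ranges apart from one another. Dmrta1 (0.213 CPM per kb), Dmrta2 (0.082 CPM per kb), Dmrt3 (0.0215 CPM per kb) and Emx1 (0.00825 CPM per kb) were last, with overlap between neighbours. Among the 14655 tested genes with a length, Lhx2 stood at percentile 97.0 in dorsal and 54.6 in ventral libraries, Pax6 at percentile 59.5 in dorsal and 8.3 in ventral libraries, and Nr2f2 at percentile 76.4 in dorsal and 81.0 in ventral libraries.

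**Figure D3:**
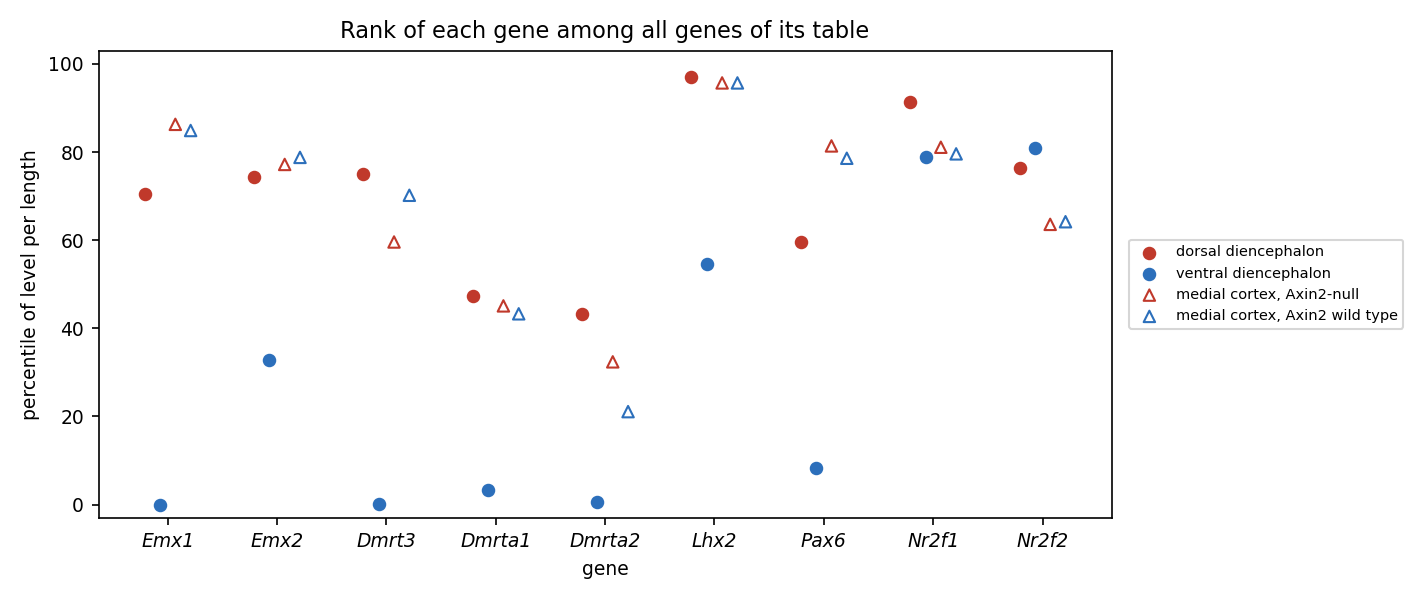
Percentile of the level per length of each gene among the genes of its table, in dorsal and ventral diencephalon (filled circles, CPM per kb) and in Axin2-null and wild-type medial cortex (open triangles, TPM). Emx1 is at percentile 70.4 in dorsal and 0.0 in ventral diencephalon, while Nr2f1 and Nr2f2 are between 63.6 and 91.4 in all 4 groups.

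Other genes of the same tissues were followed as lists. Of 19 other telencephalic and pallial patterning genes, 13 were higher in dorsal, 2 were higher in ventral and 4 did not pass, with a median log2 fold change of 2.12. The 2 higher in ventral were Fezf1, at 13.6 ± 0.729 CPM in dorsal tissue and 173 ± 18.8 CPM in ventral tissue (SD, n = 3 each), and Six3, at 27.2 ± 1.95 CPM in dorsal tissue and 163 ± 24.3 CPM in ventral tissue. Six3 is an anterior forebrain and eye gene, and Fezf1 is also among the hypothalamic markers. Of 9 pallial neurogenesis genes, which act downstream of cortical progenitors, 7 were higher in dorsal (median 3.43), and 0 passed toward ventral by edgeR, by DESeq2 or at an unadjusted p under 0.05, with Neurod6 at 721 ± 121 CPM in dorsal tissue and 12.5 ± 1.66 CPM in ventral tissue and Neurog2 at 375 ± 5.20 CPM in dorsal tissue and 34.7 ± 7.66 CPM in ventral tissue. Whether the dorsal libraries held telencephalic tissue was not tested.

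Signalling genes of the cortical edges were mixed. The hem and choroid plexus list held 16 genes, of which Wnt3a, Wnt2b, Bmp4, Bmp6 and Msx2 were too low to be tested. They averaged 0.16 to 1.07 CPM in dorsal tissue and 0 to 0.495 CPM in ventral tissue. Of the 11 tested genes of this list, 6 were higher in dorsal (median 2.63). Toward ventral 0 passed by edgeR, 1 by DESeq2 and 1 at an unadjusted p under 0.05. Wnt7b was at 277 ± 39.1 CPM in dorsal tissue and 29.3 ± 4.44 CPM in ventral tissue, and Rspo3, a secreted amplifier of Wnt signalling, at 61.0 ± 1.76 CPM in dorsal tissue and 2.96 ± 1.17 CPM in ventral tissue. The rostral FGF and antihem list had 12 tested genes (median -0.43), with Etv1 and Fgf15 passing toward dorsal, 1 gene (Dbx1) toward ventral, and 9 not passing. Of 11 subpallial genes, 3 were higher in dorsal, with Gsx2 and Sp9 leading, and 4 in ventral, with Nkx2-1 and Gsx1 leading (median -0.39). Of 13 tested relatives and partners of the families, 4 were higher in dorsal and 2 in ventral (median 0.13). Among them Lhx9, a LIM-homeodomain gene of the thalamus, was at 236 ± 16.9 CPM in dorsal tissue and 9.48 ± 5.88 CPM in ventral tissue, Pax3 at 4.98 ± 0.445 CPM in dorsal tissue and 0.605 ± 0.145 CPM in ventral tissue, and Lhx5 at 50.5 ± 2.92 CPM in dorsal tissue and 110 ± 18.9 CPM in ventral tissue. Lmo3, a LIM-only gene, was at 71.4 ± 21.04 CPM in dorsal tissue and 161 ± 16.02 CPM in ventral tissue.

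Cell makeup was followed by markers. Of 9 neuron markers, 2 were higher in dorsal (Dcx and Nhlh1) and 2 in ventral (Stmn2 and Gap43), with summed levels of 4851 to 5615 CPM in dorsal tissue and 5513 to 6071 CPM in ventral tissue. Of 9 progenitor markers, 3 were higher in dorsal, with Notch1 and Nes leading, and 2 in ventral (Sox1 and Sox3), with summed levels of 685 to 940 CPM in dorsal tissue and 659 to 813 CPM in ventral tissue. Of 10 thalamic markers, all higher in dorsal, Tcf7l2 was at 1105 ± 110 CPM in dorsal tissue and 67.5 ± 7.29 CPM in ventral tissue, and Gbx2 at 116 ± 6.24 CPM in dorsal tissue and 3.09 ± 0.501 CPM in ventral tissue. Of the hypothalamic markers, Six6 was at 1.37 ± 0.365 CPM in dorsal tissue and 81.8 ± 10.3 CPM in ventral tissue. Of 6 tested optic vesicle markers, 3 were higher in ventral, with Six6 and Rax leading. All 8 exocrine pancreas markers (Cela3b and Cpb1 leading), all 8 small intestine markers (Fabp2 and Reg3b leading) and 2 of 4 tested islet markers (Sst and Ins2) were higher in ventral. Of 4 tested red blood cell markers, 2 were higher in dorsal (Hbb-y and Hba-x). Of 6 mesenchyme markers, 2 endothelial markers and 1 macrophage marker tested, 0 passed by edgeR, while toward ventral 1 mesenchyme marker passed by DESeq2 and 2 at an unadjusted p under 0.05. Those with the highest means were Col1a2, Col3a1, Pecam1, Kdr and Ptprc.

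In the medial cortex, none of the 9 genes differed between Axin2-null and wild-type libraries by 1 or more on the scale of mean log2(TPM + 1), a 2-fold difference for a well-detected gene. All 9 averaged 1 TPM or more over the libraries. Among 13680 genes averaging 1 TPM or more, 1.39% were higher and 8.14% were lower in null by that much. The differences of the 9 genes, null minus wild type, ran from -0.53 for Dmrt3 to 0.40 for Dmrta2, with a median of -0.16 beside a median of -0.22 over those genes. Each sample is labelled as a cell and no animal is named, so a genotype was treated as 1 sample. No test was made, and the SDs over libraries describe these libraries only.

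Lhx2 was the highest of the 9 genes in every library. It ran from 166 to 399 TPM with a median of 267 TPM in null libraries and from 184 to 382 TPM with a median of 234 TPM in wild-type libraries, a difference of 0.03. It was also the most even gene, with an SD on the log2 scale of 0.385 in null and 0.379 in wild-type libraries. Emx1 ran from 7 to 149 TPM with a median of 70.4 TPM in null libraries and from 32.1 to 140 TPM with a median of 69.6 TPM in wild-type libraries, a difference of -0.16. Its lowest null library lay below all wild-type libraries, while the highest libraries of both genotypes were close.

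Pax6 ran from 3.93 to 83.9 TPM with a median of 56.2 TPM in null libraries and from 19.5 to 83.0 TPM with a median of 40.8 TPM in wild-type libraries. Emx2 ran from 5.70 to 91.4 TPM with a median of 37.1 TPM in null libraries and from 10.99 to 104 TPM with a median of 32.2 TPM in wild-type libraries. The ranges of the genotypes overlapped for these genes, with differences of -0.06 for Pax6 and -0.32 for Emx2. Each was smaller than the SD over libraries, which is the spread of single libraries and not the error of a mean. Nr2f1 ran from 0.82 to 130 TPM with a median of 34.0 TPM in null libraries and from 8.09 to 97.9 TPM with a median of 50.4 TPM in wild-type libraries, a difference of -0.30. Nr2f2 ran from 0 to 33.5 TPM with a median of 20.3 TPM in null libraries and from 0 to 55.2 TPM with a median of 23.4 TPM in wild-type libraries, a difference of -0.10.

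Dmrta1 and Dmrta2 had the lowest means, and Dmrt3 lay beside Nr2f2. Dmrt3 ran from 0.69 to 44.5 TPM with a median of 10.99 TPM in null libraries and from 0.42 to 73.3 TPM with a median of 19.5 TPM in wild-type libraries. Dmrta1 ran from 0 to 21.1 TPM with a median of 5.83 TPM in null libraries and from 0 to 17.5 TPM with a median of 10.7 TPM in wild-type libraries. Dmrta2 ran from 1.52 to 9.92 TPM with a median of 4.06 TPM in null libraries and from 0.75 to 8.12 TPM with a median of 2.7 TPM in wild-type libraries. The genotypes overlapped for all 3 genes, with differences of -0.53, -0.27 and 0.40 in that order. Dmrta2os, an antisense gene next to Dmrta2 that shares none of its exon bases, averaged 25.5 TPM over the 25 libraries.

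**Figure D4:**
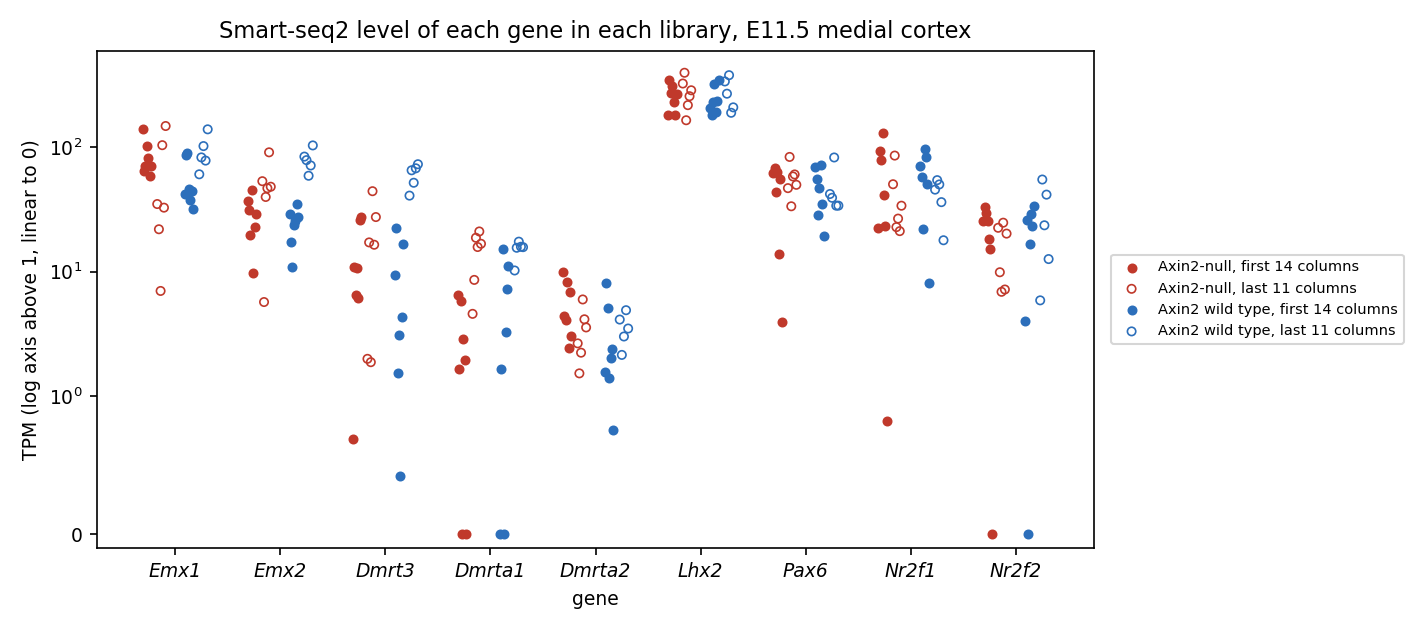
TPM of each gene in each Smart-seq2 library, null (red) left of wild type (blue), on an axis that is logarithmic above 1 and linear from 1 to 0. Filled points are the first 14 columns of the table and open points the last 11. Lhx2 is above the other genes in every library, and the open wild-type points of Dmrt3 run from 41.0 to 73.3 TPM, above the filled ones.

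Nearly every library held RNA of nearly all of these genes. All 9 were at 1 TPM or more in 10 of 13 null libraries (76.9%, exact 95% interval 46.2% to 95%) and 7 of 12 wild-type libraries (58.3%, 27.7% to 84.8%), intervals that cover counting error only. Every library with a gene of the 9 below 1 TPM was among the first 14 columns, and each of the last 11 columns held all 9. Emx1, Emx2, Lhx2 and Pax6 were at 1 TPM or more in all 25 libraries. The gene most often below 1 TPM was Dmrta1, detected in 11 of 13 null and 10 of 12 wild-type libraries. In 1 null library Dmrta1, Nr2f1 and Nr2f2 were each below 1 TPM, and it also had the fewest genes detected, 7863, against a highest value of 12209 over all libraries. Markers of progenitors (1235 to 2999 TPM summed in null and 828 to 2733 TPM in wild type), of neurons (79.0 to 1544 TPM in null and 339 to 1355 TPM in wild type) and of red blood cells (1989 to 42559 TPM in null and 701 to 23887 TPM in wild type) were present in each library. Summed hypothalamic markers reached at most 7.96 TPM in a null and 6.45 TPM in a wild-type library.

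TPM is per length, so the genes can be ordered within the cortex as well. In null libraries the means were Lhx2 266 TPM, Emx1 72.6 TPM, Pax6 49.6 TPM, Nr2f1 48.7 TPM, Emx2 37.0 TPM, Nr2f2 18.4 TPM, Dmrt3 15.3 TPM, Dmrta1 8.03 TPM and Dmrta2 4.54 TPM. In wild-type libraries they were Lhx2 259 TPM, Emx1 70.5 TPM, Nr2f1 49.7 TPM, Emx2 47.3 TPM, Pax6 46.7 TPM, Dmrt3 29.8 TPM, Nr2f2 22.6 TPM, Dmrta1 9.44 TPM and Dmrta2 3.25 TPM. Lhx2 and Emx1 were the one pair of neighbours whose order held in every library, and the ranges of all other neighbours overlapped. Emx1 stood higher among the genes of its table here (percentile 86.3 in null and 84.9 in wild type) than in dorsal diencephalon (percentile 70.4), and so did Pax6, at percentile 81.4 in null and 78.6 in wild type against 59.5, and Emx2, at 77.2 in null and 78.8 in wild type against 74.3. The other 6 genes stood lower here in both genotypes, such as Nr2f1 at percentile 81.1 in null and 79.6 in wild type against 91.4, Nr2f2 at 63.6 in null and 64.2 in wild type against 76.4, and Dmrta2 at 32.4 in null and 21.1 in wild type against 43.3. The tables were normalized separately and these ranks were not tested.

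The 2 stretches of the Smart-seq2 table, the first 14 and the last 11 columns, differed for 3 of the genes. No label calls them batches, and they were compared after the values had been seen. Dmrta1 averaged 14.6 ± 4.83 TPM over the last 11 and 4.09 ± 4.61 TPM over the first 14 columns, Dmrt3 37.2 ± 26.0 TPM over the last and 10.48 ± 9.32 TPM over the first columns, and Emx2 62.2 ± 27.6 TPM over the last and 26.1 ± 9.82 TPM over the first columns (SD over libraries). Their differences in mean log2(TPM + 1), last minus first, were 2.11, 1.69 and 1.08, while the other 6 genes lay between -0.19 and 0.37. A difference of 1 or more was reached by 8.68% of the 13680 genes, whose median was 0.20. Among markers of other cell types averaging 1 TPM or more, 2 of 6 mesenchyme genes (Lum by 2.47 and Dcn by 1.195), 2 of 6 endothelial genes (Emcn leading by 1.58) and 1 of 5 red blood cell genes (Hbb-bh1 by 2.01) were also higher in the last columns by 1 or more, and 1 of 4 macrophage genes (C1qa) was lower. Their part in the differences of Dmrt3, Dmrta1 and Emx2 was not tested.

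Within these stretches the genotypes differed in other ways than over all libraries. In the last 11 columns Dmrt3 was at 18.3 ± 16.2 TPM in null libraries (n = 6) and 59.9 ± 13.2 TPM in wild-type libraries (n = 5). The lowest and highest null values were 1.87 and 44.5 TPM. The lowest and highest wild-type values were 41.0 and 73.3 TPM, so 1 null library reached the wild-type range. These columns hold 3 null, then 5 wild-type, then 3 null libraries. Dmrt3 was at 1.99, 17.2 and 1.87 TPM in the earlier 3 null libraries and 44.5, 16.5 and 27.5 TPM in the later 3. Emx1 was at 58.3 ± 55.6 TPM in null and 93.0 ± 30.2 TPM in wild-type libraries there, and Emx2 at 47.6 ± 27.4 TPM in null and 79.6 ± 16.5 TPM in wild-type libraries, with overlapping ranges. The differences, null minus wild type, were -2.27 for Dmrt3, -1.21 for Emx1 and -1.04 for Emx2. These 3 of the 9 genes passed -1 there, as did 20.9% of all 13680 genes, whose median difference was -0.34 in those columns.

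In the first 14 columns the same 3 differences had the other sign, 0.70 for Dmrt3, 0.68 for Emx1 and 0.15 for Emx2, with a median over all genes of -0.11. Dmrta2 was at 0.80 and -0.11, Nr2f2 at 0.28 and -0.63, and Pax6 at -0.36 and 0.29 in the first 14 and the last 11 columns. Dmrta1 (-0.51 and -0.19), Nr2f1 (-0.45 and -0.11) and Lhx2 (0.06 and -0.02) lay near 0 or below it in both. A genotype difference in Dmrt3, Emx1 or Emx2 therefore did not hold across both stretches of the table.

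**Figure D5:**
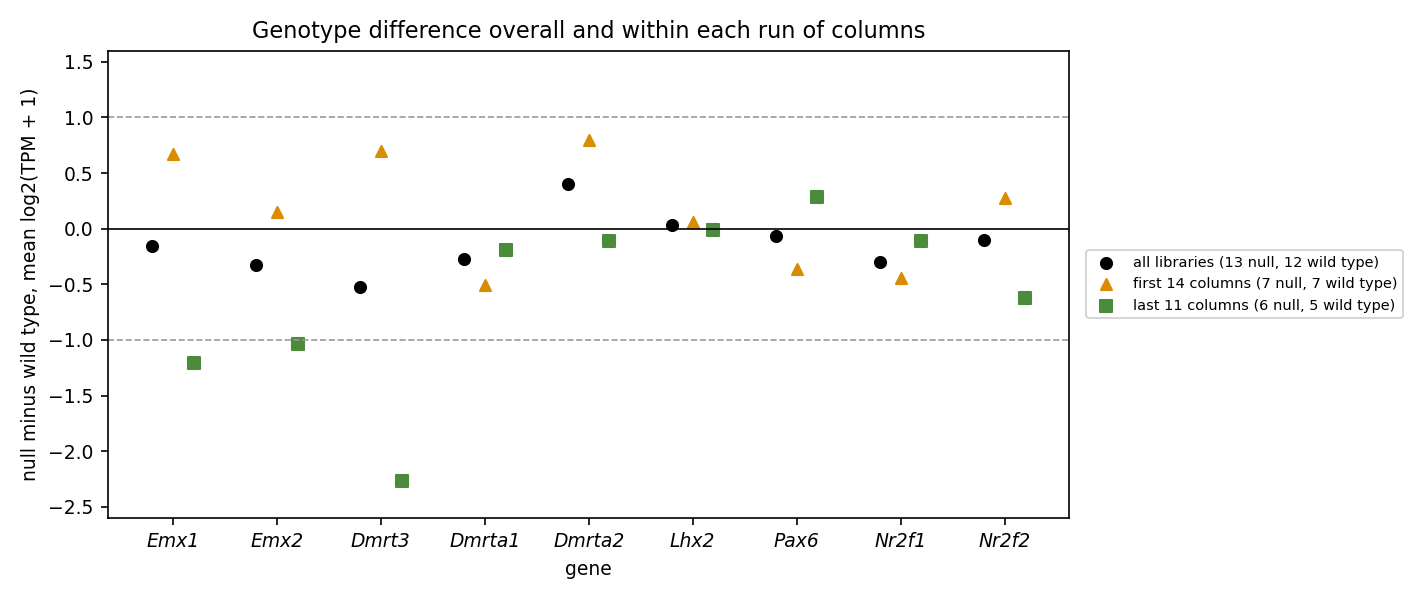
Difference of mean log2(TPM + 1), null minus wild type, for each gene over all 25 libraries (circles), within the first 14 columns (triangles) and within the last 11 columns (squares), with dashed lines at 1 and -1. Over all libraries the points lie between -0.53 and 0.40, and Dmrt3 is at 0.70 in the first and -2.27 in the last columns.

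Across the 25 libraries the genes mostly did not vary together. Of 36 pairs, Emx1 with Dmrta2 had the highest Spearman rho, 0.603 (Pearson r 0.56 on log2(TPM + 1)), with rho 0.851 in the first 14 and 0.382 in the last 11 columns. Pax6 with Nr2f1 followed at rho 0.549 (r 0.754), with 0.648 in the first and 0.336 in the last columns. Emx2 with Dmrta1 had rho 0.545 overall but -0.214 and 0.073 within the 2 stretches, both of these genes being higher in the last columns. The lowest value was that of Dmrta1 with Nr2f1, rho -0.489 (r -0.147). Which libraries share an embryo is not labelled, the libraries differ in table position and number of detected genes, and these values are descriptions.

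The genes whose levels followed each factor most closely were sought among 8454 genes averaging 5 TPM or more, by Spearman rho over the 25 libraries. Taking the highest of so many genes yields high values even among unrelated genes, and no test was made. Closest to Emx2 were Pbdc1 (0.822), Rspo2 (0.813), which encodes a secreted amplifier of Wnt signalling, and Coq2 (0.804). Rspo2 was at 0.284 within the first 14 and 0.6 within the last 11 columns, and both Rspo2 and Emx2 were higher in the last columns. Closest to Dmrta1 were Hey1 (0.786), a Notch target gene, Skp2 (0.782) and Psmg2 (0.759), but Hey1 was at 0.155 within the last 11 columns. Closest to Pax6 were Mios (0.792), Spry2 (0.667), an inhibitor of FGF signalling, and Ndufaf7 (0.637). Spry2 averaged 5.87 TPM, near the minimum of 5 TPM, and was at 0.779 within the first 14 and 0.391 within the last 11 columns. For Dmrt3 they were Gnas (0.845), Psip1 (0.808) and Lamp1 (0.787), for Emx1 Map7d1 (0.715), Snrnp200 (0.697) and Nudt4 (0.678), and for Dmrta2 Maz (0.700), Snrnp200 (0.671) and Prrc2a (0.659), the last of these at 0.164 within the last 11 columns. For Lhx2 they were Cstb (0.692), Gsto1 (0.689) and Snrpd1 (0.687), for Nr2f1 Dync1h1 (0.802), Lzts1 (0.755) and Rrn3 (0.754), and for Nr2f2 Dab2 (0.754), Tmod2 (0.738) and Gpt2 (0.728). Within the stretches, the values of these 27 pairs ran from 0.284 to 0.877 in the first 14 and from 0.155 to 0.918 in the last 11 columns. These are the same libraries from which the pairs were picked, so they are no separate check.

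In 5 lists of genes that surround these factors in the cortex, 7 of 62 genes (11.3%) were lower in null by 1 or more and 0 were higher, beside 8.14% lower and 1.39% higher over all 13680 genes, whose median was -0.22. Of 16 telencephalic and pallial patterning genes averaging 1 TPM or more, 0 were higher and 2 lower in null by 1 or more (median -0.69). Of 8 pallial neurogenesis genes 1 was lower, Neurod6, with a difference of -1.27 and means of 74.5 TPM in null and 95.6 TPM in wild type. It ran from 0 to 234 TPM with a median of 15.8 TPM in null libraries. In wild-type libraries it ran from 19.9 to 337 TPM with a median of 40.0 TPM. Of 15 hem and choroid genes 1 was lower (median -0.65), and of 10 rostral and antihem genes 2 were lower (median -0.52). Of 13 family relatives 1 was lower (median -0.33).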

How the data were processed

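The bulk values, which the authors made from reads and deposited, are estimated counts. Their table carries TPM in its name, yet column sums lie between 17604411 and 20838226, and 46.6% of the nonzero values are whole within 0.0001. They were rounded before testing. The TPM of the Smart-seq2 table are those the authors deposited, with column sums of 999999.57 to 1000000.7, and keep no information on depth. The submitters' processing notes name Trimmomatic, STAR 2.7.0a and featureCounts and the builds mm10 and GRCm38, without saying how each was used. Groups were taken from the labels, and Smart-seq2 columns carry a genotype but no sample number. Genes were named and placed with GENCODE M21 on GRCm38, and promoters come from RefSeq on GRCm38.p6.

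Bulk counts were tested with edgeR 4.0.16 in R 4.3.3 (TMM scaling, quasi-likelihood test) over the 14701 genes averaging 1 CPM or more, with Benjamini-Hochberg adjustment over all of them and a threshold of 0.05. Alternatives used DESeq2 1.42.0, limma 3.58.1, other filters and scaling, no rounding, a replicate block and each library left out. No pair of libraries of a region agreed within sampling noise (chi-square per gene 8.5 or more), so each was counted. Libraries 1 and 2 were closer to each other than to library 3 in both regions. Chi-square per gene was 8.5 between dorsal libraries 1 and 2, and 116.5 and 129.2 between these and dorsal library 3. For ventral libraries it was 19.6 between 1 and 2, and 70 and 92.6 between these and 3. The code was tested on simulated data. Smart-seq2 values were compared as mean log2(TPM + 1), with a pseudocount of 1 and no test, over genes averaging 1 TPM or more. This scale understates changes of low genes. From each list, up to 2 genes per direction with the smallest adjusted p are named, or the 2 with the highest means where none passed (some are not reported here), and per member the 3 genes of highest Spearman correlation. Members and lists were chosen with earlier results of these data known.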

Additional observations from a re-analysis of the deposited data

How the results depend on the processing

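Over 13 alternatives of the bulk test, the calls and directions of Emx1, Emx2, Dmrt3, Dmrta1, Lhx2 and Pax6 held in each. The replicate numbers are not known to pair the libraries. Deviations from the region mean correlated at 0.099, 0.148 and 0.165 between same-numbered libraries. Between other pairs they ran from -0.192 to 0.187, the highest for dorsal library 2 with ventral library 1. With 3 libraries per region these values cannot decide whether the libraries are paired. With a replicate block, the counts were 924 for dorsal and 1083 for ventral, Dmrta2 did not pass (log2 fold change 5.20, adjusted p = 0.0606) and Nr2f1 did (1.09, adjusted p = 0.0209). Nr2f1 also passed with DESeq2 (1.16, adjusted p = 0.0313) and without the filter on low counts (1.16, adjusted p = 0.0318). Its adjusted p ran from 0.0209 to 0.286 over all alternatives, and that of Dmrta2 from 6.31e-08 to 0.0606. Leaving out 1 library at a time gave log2 fold changes from 0.60 to 1.53 for Nr2f1 and from 4.56 to 6.02 for Dmrta2, from 9.63 to 12.04 for Emx1 and from 8.77 to 10.16 for Dmrt3. It gave 500 to 1695 genes higher in dorsal and 839 to 1928 higher in ventral, against 1050 and 1403 with all libraries. The cause was not tested. Counts higher in dorsal were 500, 561, 530 and 599 without dorsal library 1, dorsal library 2, ventral library 1 and ventral library 2. Without dorsal library 3 the count was 1413, and without ventral library 3 it was 1695. Counts higher in ventral were 839, 909, 920 and 899 without the first 4 of these libraries. They were 1811 without dorsal library 3 and 1928 without ventral library 3. Of 63 alternative Smart-seq2 differences, 1 moved by more than the SD over libraries, that of Emx1 within the last 11 columns (-1.21), a setting added after seeing the data. Dmrt3 went from -0.53 to -2.27 in those columns, a move just under its SD of 1.76. With medians over libraries in place of means, Emx1 (0.03), Emx2 (0.20) and Pax6 (0.45) changed sign, and the other genes kept theirs. No library had under 50% of the median number of detected genes, so that alternative gave no value. At 5 TPM or more, Dmrta2 was detected in 4 of 13 null and 2 of 12 wild-type libraries and Dmrta1 in 7 of 13 null libraries. Ventral levels of Emx1, Dmrt3 and Dmrta2 rest on 1, 3 and 14 counts.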

Other observations

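Of genes averaging 1 TPM or more, 5 of 10 rostral and antihem signalling genes and 6 of 15 hem and choroid genes were higher in the last 11 than in the first 14 columns of the Smart-seq2 table by 1 or more in mean log2(TPM + 1), and 0 were lower. The list medians were 0.73 and 0.61, beside 0.20 over all 13680 genes, of which 8.68% were higher by 1 or more. Fgf17, a rostral FGF ligand, was higher by 3.63, and Rspo2 of the cortical hem by 2.88. Fgf8 was higher by 2.01, and the Notch effector Hes1 by 2.45. These 4 genes were chosen after their values were seen, and no test was made. Fgf8 was at 1 TPM or more in 6 of 13 null and 4 of 12 wild-type libraries, with a median of 0 TPM in both. Fgf17 reached that level in 9 null and 8 wild-type libraries, and Rspo2 in 8 null and 9 wild-type libraries. Libraries without detection thus enter these differences. Msx1 of the hem list (-0.36), Etv4 of the rostral list (-0.20) and Neurog2 (-0.44) had no such increase.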
